A study of Mus musculus with 9 samples.

Results

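The 8 genes described here encode cytokines, cytokine receptor chains and inhibitors of cytokines, grouped under the name epithelial cytokines and their binding proteins. In whole small intestine this name does not say which cells held the transcripts. Il15, Il7, Il18 and Il33 encode cytokines, Il15ra and Il22ra1 encode receptor chains, and Il18bp and Il1rn encode inhibitors. They were taken by gene symbol from the deposited gene table, in which 8 of 19360 genes carried one of these symbols. No measured value entered that rule, but the members were chosen with earlier results of these data known. Poly(A) RNA of small intestine was sequenced from 9 wild-type BALB/c mice, an inbred strain, with 3 mice in each of 3 groups. Every mouse received total body irradiation (TBI) at 9 Gy, and the tissue was taken 12 h later. The 3pRNA + anti-IFNAR1 + TBI mice (blockade) received an antibody that blocks the type I interferon receptor 48 h before irradiation and 3pRNA, an RNA that activates the cytosolic sensor RIG-I, 24 h before it. The 3pRNA + TBI mice received 3pRNA 24 h before irradiation and no antibody, and the TBI mice were irradiated only. Mice without irradiation, or given carrier, a control antibody or the antibody alone, were not analysed here, so each comparison is among irradiated intestines. The labels give no age for these mice, and the general methods of the study give only a range over all its mice, of young adults.

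IL-15 and IL-7 are survival factors for T cells, NK cells and the lymphocytes that sit among intestinal epithelial cells, and IL-15 is handed to those cells on the IL-15 receptor α chain. IL-18 and IL-33 belong to the IL-1 family and are held as stored proteins in barrier tissue until damage or inflammasome activity frees them. IL-18 binding protein captures free IL-18, the IL-1 receptor antagonist occupies the IL-1 receptor without signalling, and the IL-22 receptor α1 chain lets epithelial cells answer IL-22 with antimicrobial proteins and repair.

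Il18bp and Il7 were the members for which a comparison passed the test. Il18bp was 1.47-fold higher in 3pRNA + TBI mice than in TBI mice and 2.42-fold lower in blockade mice than in 3pRNA + TBI mice. Il7 was 1.69-fold lower in 3pRNA + TBI mice than in TBI mice. With each of the 9 libraries left out in turn, this change of Il7 passed the test in 4 of 9 fits. In the same comparison Il18bp passed in 6 of 9, and in blockade against 3pRNA + TBI mice in 9 of 9. For the other 6 members no comparison passed the test. All values below are scaled read counts, in which the reads of each library were brought to a common depth by a factor per library, given for replicates 1, 2 and 3 of a group in that order. Changes are differences of log2(scaled count + 1) with the standard error (SE) and the adjusted p of limma, fitted over the 9 libraries, with Benjamini-Hochberg adjustment over the 14199 genes whose mean scaled count was at least 10. A gene was called under an adjusted p of 0.05. Each of the 8 members passed that filter, with 32 to 2770 reads per library.

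**Figure D1:**
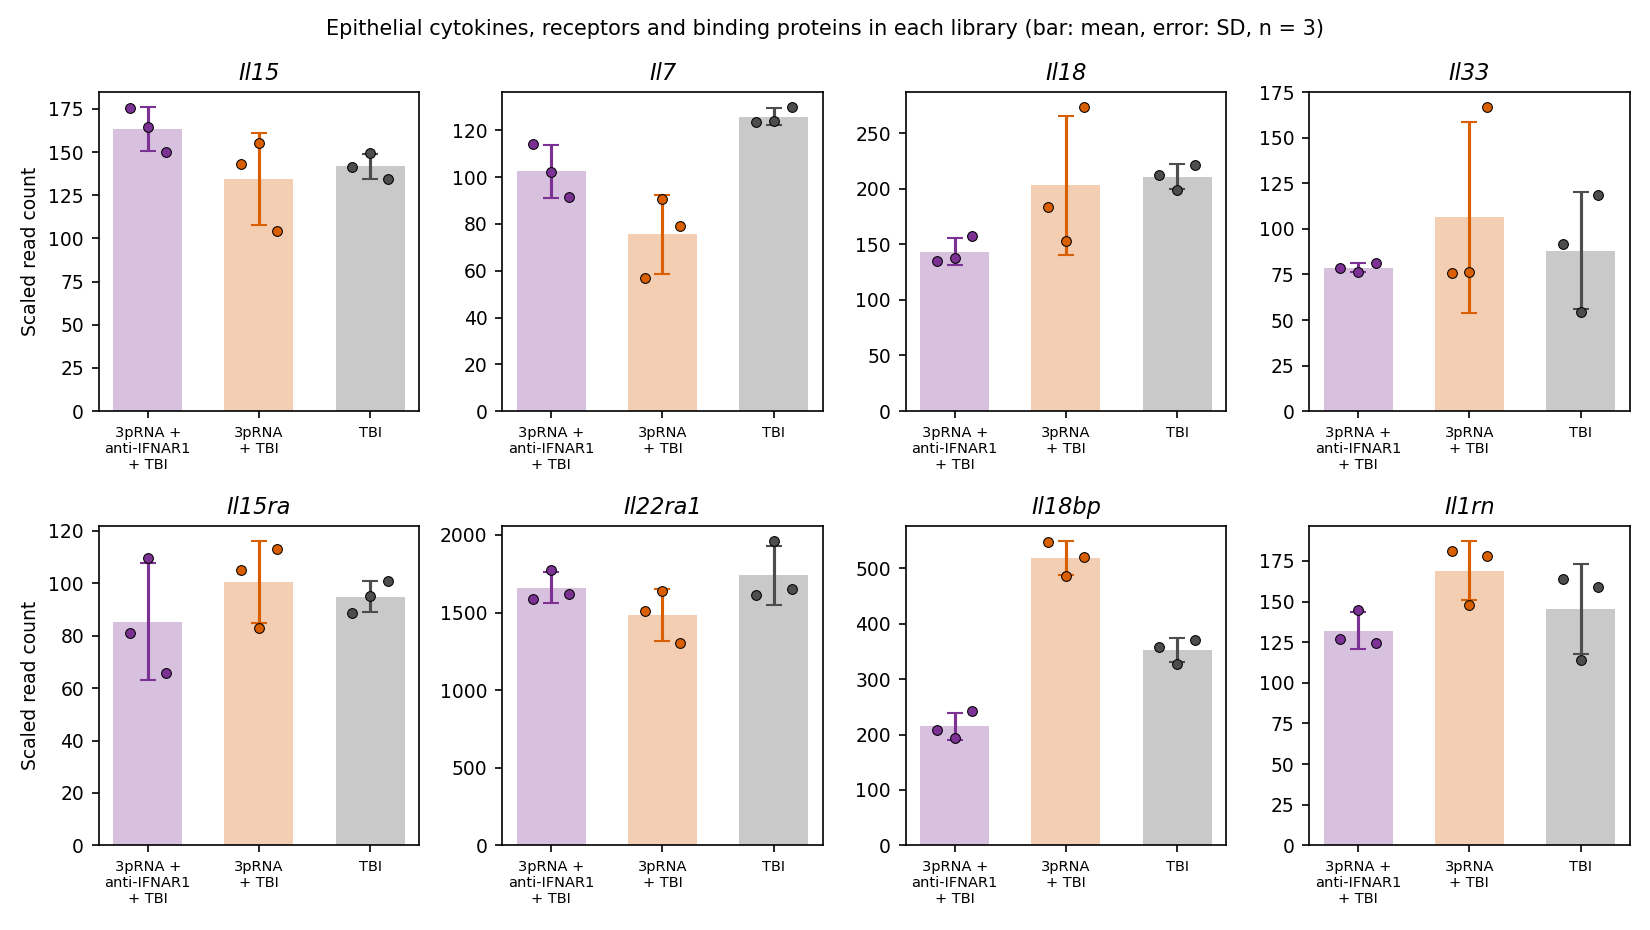
Scaled read count (linear axis from 0) of each of the 8 genes in the 3 libraries of each group; points are libraries, bars the mean and error bars the SD. The 3 points of Il18bp in 3pRNA + TBI mice (486 to 547) lie above those of TBI mice (328 to 371), which lie above those of blockade mice (194 to 242), and those of Il7 are lowest in 3pRNA + TBI mice (57.0 to 90.6).

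The libraries held 6487053 to 19946586 reads in genes. Markers of other tissue layers also differed between groups. Of 11 smooth muscle genes 6 were called higher in 3pRNA + TBI mice than in TBI mice, and their summed scaled count was 17315 to 28931 in blockade, 23325 to 30417 in 3pRNA + TBI and 5886 to 20001 in TBI libraries. Of 8 adipocyte genes 7 were called higher in the same comparison, with a median log2 change of 4.47 over the 8. In each TBI library 5 of the 8 had no read, and in blockade replicate 2 this held for 4, whereas all had reads in 3pRNA + TBI libraries. Of 7 neuron and glia genes tested 4 were called higher in 3pRNA + TBI than in TBI mice (median 1.86). Of 10 epithelial genes none was called in any comparison, and their summed scaled count was 192999 to 205636 in blockade, 173096 to 204886 in 3pRNA + TBI and 206128 to 233852 in TBI libraries. The part of these differences in the results was not tested, and in whole tissue fewer cells of a type and less RNA per cell cannot be told apart.

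Per kilobase of exon, the scale on which genes can be set against each other, Il22ra1 stood highest, with 634 ± 69.2 scaled counts per kb (SD, n = 9 libraries). Il18 followed with 180 ± 44.2, Il18bp with 120 ± 44.1 and Il15 with 64.8 ± 8.88 scaled counts per kb. Il33 (31.5 ± 11.5), Il1rn (26.9 ± 4.29), Il15ra (21.0 ± 3.46) and Il7 (17.9 ± 4.27 scaled counts per kb) were lowest. Each library of Il22ra1, at 507 to 762 per kb, lay above every library of the other members, whereas the ranges of all other neighbours in this order overlapped. Exon lengths came from a later annotation than that of the authors, so these levels are approximate.

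Among the cytokines, Il7 was the only gene called. It had 114, 102 and 91.5 scaled counts in blockade mice, 57.0, 90.6 and 79.0 in 3pRNA + TBI mice, and 124, 124 and 130 in TBI mice. The 3 groups did not overlap: 3pRNA + TBI libraries were lowest, blockade libraries came just above them, and TBI libraries were highest and closest to each other. In 3pRNA + TBI against TBI mice the log2 change was -0.75 (SE 0.17, adjusted p = 0.0333, lower in 3 of 3 libraries), with a 95% interval of -1.13 to -0.38. With Il18bp it was 1 of 2 members called in this comparison, 1 lower and 1 higher, where 5.59% of all genes tested were called, 494 higher (3.48%) and 300 lower (2.11%). These 2 were also the members whose groups did not overlap, as was the case for 25.2% of genes tested, 12.2% higher and 13% lower. This split depends on the scaling, with 804 higher and 175 lower when libraries were scaled to equal totals, and 1120 and 121 when they were scaled to an equal level of the epithelial genes. These scalings add 0.11 and 0.16 to every log2 change, and under them Il7 had a log2 change of -0.64 (adjusted p = 0.0623) and -0.59 (adjusted p = 0.0877) and was no longer called.

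The call of Il7 also rested on single libraries. Its adjusted p was 0.0940 without TBI replicate 1, 0.0504 without TBI replicate 2, 0.0956 without TBI replicate 3, 0.0919 without 3pRNA + TBI replicate 1 and 0.0835 without 3pRNA + TBI replicate 3. The log2 change stayed between -0.90 and -0.57 with any 1 of the 9 libraries left out. Blockade against 3pRNA + TBI mice gave 0.46 (SE 0.17, adjusted p = 0.355) and blockade against TBI mice -0.30 (SE 0.17, adjusted p = 0.506), and neither passed the test. The exons of Il7 (chromosome 3, minus strand, GRCm38) share 105 of 5664 bases with the antisense gene Gm16685. As no source used here gives the strand used in counting, reads of this stretch cannot be assigned to one of them.

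Genes of the cells that IL-7 and IL-15 sustain moved in the same comparison. Of 9 T and NK cell genes 6 were called lower in 3pRNA + TBI than in TBI mice (among them Cd8a, the granzyme genes Gzma and Gzmb, and Itgae, an integrin chain of lymphocytes within the epithelium), with a median log2 change of -0.90 over the 9, where that of all genes tested was -0.02. Their summed scaled count was 1194 to 1526 in blockade, 681 to 920 in 3pRNA + TBI and 1374 to 1856 in TBI libraries, so that only the 3pRNA + TBI libraries stood apart. In blockade against 3pRNA + TBI mice none of the 9 was called, with a median of 0.77, and in 8 of them all blockade libraries lay above all 3pRNA + TBI libraries, which held in this direction for 8.25% of genes tested. Within 3pRNA + TBI mice the library with the lowest Il7 had the highest level of these genes, and whether the 2 are linked was not tested. Over the 9 libraries the Pearson r of log2 Il7 was 0.55 with the mean log2 level of these genes and 0.49 with the epithelial list. It was -0.71 with neuron and glia, -0.64 with adipocyte, -0.57 with smooth muscle and -0.64 with interferon-stimulated genes. With the T and NK cell genes the r of the other members ran from -0.64 (Il18bp) to 0.50 (Il22ra1). These values describe libraries that share groups and size factors. The receptor chain Il7r, low throughout, averaged 23.2, 20.5 and 22.2 scaled counts in blockade, 3pRNA + TBI and TBI mice.

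Il15 had 175, 165 and 150 scaled counts in blockade mice, 143, 155 and 104 in 3pRNA + TBI mice, and 141, 149 and 135 in TBI mice. The blockade libraries lay just above the TBI libraries, and the 3pRNA + TBI libraries overlapped both groups. The log2 change was -0.10 (SE 0.15, adjusted p = 0.756) in 3pRNA + TBI against TBI mice, 0.30 (adjusted p = 0.540) in blockade against 3pRNA + TBI mice and 0.20 (adjusted p = 0.606) in blockade against TBI mice, and the 95% interval of the first reached from -0.43 to 0.23.

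Il18 was even in both other groups and scattered in 3pRNA + TBI mice. It had 135, 138 and 157 scaled counts in blockade mice, 183, 153 and 273 in 3pRNA + TBI mice, and 212, 199 and 222 in TBI mice. The blockade libraries were all lower than the TBI libraries, while the 3pRNA + TBI libraries spread from below 1 of the blockade libraries to above all TBI libraries. The log2 change was -0.56 (SE 0.18, adjusted p = 0.245) in blockade against TBI mice, -0.46 (adjusted p = 0.374) in blockade against 3pRNA + TBI mice and -0.10 (adjusted p = 0.804) in 3pRNA + TBI against TBI mice. None passed the test.

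Il33 scattered most within 3pRNA + TBI and within TBI mice and least within blockade mice. It had 78.8, 76.1 and 81.1 scaled counts in blockade mice, 75.7, 76.4 and 167 in 3pRNA + TBI mice, and 91.7, 54.3 and 118 in TBI mice, with a coefficient of variation of 3.19%, 49.3% and 36.5% in the same order of groups. The high mean of 3pRNA + TBI mice came from replicate 3, the library that was also highest in Il18 and lowest in Il15 of its group. The log2 change in 3pRNA + TBI against TBI mice was 0.23 (SE 0.32, adjusted p = 0.724), and it turned to -0.14 without 3pRNA + TBI replicate 3 and to -0.07 without TBI replicate 2. Blockade mice differed from 3pRNA + TBI mice by -0.33 (adjusted p = 0.806), which turned to 0.05 without 3pRNA + TBI replicate 3. Over the 9 libraries the Pearson r of log2 Il33 with the mean log2 level of marker lists was 0.86 for endothelial, 0.83 for myeloid, 0.70 for stromal, 0.66 for B and plasma cell and -0.67 for epithelial genes, a description over libraries that share groups and size factors.

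Of the receptor chains, Il22ra1 was abundant and even. It had 1586, 1775 and 1621 scaled counts in blockade mice, 1509, 1640 and 1304 in 3pRNA + TBI mice, and 1610, 1958 and 1652 in TBI mice. The groups overlapped in each comparison, and the largest difference, between 3pRNA + TBI and TBI mice, was -0.23 (SE 0.10, unadjusted p = 0.0493, adjusted p = 0.223), where 22.2% of genes tested had an unadjusted p under 0.05. Over the 9 libraries the r of log2 Il22ra1 was 0.85 with the epithelial list, -0.87 with the myeloid, -0.84 with the endothelial, and -0.77 with both the stromal and the B and plasma cell list. The epithelial list is one whose median log2 change in 3pRNA + TBI against TBI mice was -0.16, with all 10 genes negative and none called.

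The transcript of the ligand IL-22 was nearly absent. Il22 had no read in 3pRNA + TBI libraries and averaged 0.392 scaled counts in blockade and 1.02 in TBI mice, with at most 2.32 in any library, and was not tested. The partner chain Il10rb averaged 1051, 1070 and 1102 scaled counts in blockade, 3pRNA + TBI and TBI mice, and Il22ra2, the soluble decoy for IL-22, averaged 31.9, 23.6 and 24.3. Of 6 receptor, decoy and signalling genes of IL-22 tested and of 7 genes known as targets of IL-22 in gut epithelium, among them Reg3b and Reg3g, which encode lectins of an antimicrobial family, none was called in any comparison. The 7 include S100a8 and S100a9, which neutrophils also express and which are the positive genes in blockade against TBI mice. The median log2 change of the targets was -0.39 in 3pRNA + TBI against TBI mice, -0.21 in blockade against 3pRNA + TBI mice and -0.64 in blockade against TBI mice, with 3, 2 and 2 of the 7 positive.

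Il15ra had 81.2, 109 and 65.6 scaled counts in blockade mice, 105, 82.9 and 113 in 3pRNA + TBI mice, and 88.8, 95.1 and 101 in TBI mice. All groups overlapped. The log2 change was 0.07 (SE 0.19, adjusted p = 0.872) in 3pRNA + TBI against TBI mice, -0.25 (adjusted p = 0.731) in blockade against 3pRNA + TBI mice and -0.18 (adjusted p = 0.738) in blockade against TBI mice. The chains that receive IL-15, Il2rb and Il2rg, averaged 74.0 and 55.2 scaled counts in blockade mice, 69.8 and 81.0 in 3pRNA + TBI mice, and 92.7 and 61.1 in TBI mice. None of the 7 receptor and signalling genes of IL-15 and IL-7 was called in any comparison.

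**Figure D2:**
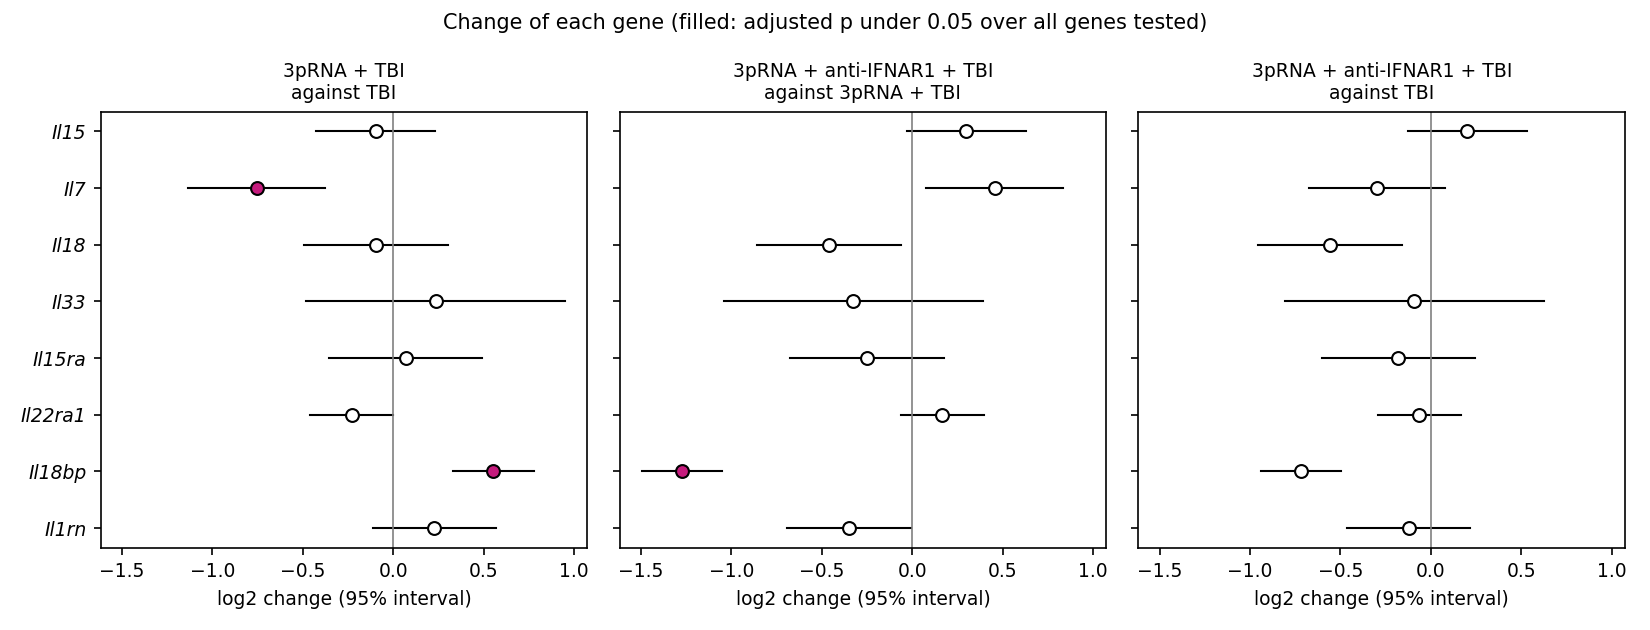
Log2 change of each gene in the 3 comparisons, with points for the estimate and lines for its 95% interval; filled points have an adjusted p under 0.05 over all 14199 genes tested. Il18bp is filled in 2 comparisons (0.55 and -1.27) and Il7 in 1 (-0.75), and no gene is filled in 3pRNA + anti-IFNAR1 + TBI against TBI.

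Of the inhibitors, Il18bp showed the most marked pattern of the 8 genes. It had 208, 194 and 242 scaled counts in blockade mice, 547, 486 and 521 in 3pRNA + TBI mice, and 359, 328 and 371 in TBI mice. Every 3pRNA + TBI library was above every TBI library, and every blockade library was below every TBI library. The means were 215 ± 24.5 in blockade, 518 ± 30.5 in 3pRNA + TBI and 353 ± 22.4 in TBI mice (SD, n = 3 each), so the gaps between groups were several times the spread within them.

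In 3pRNA + TBI against TBI mice the log2 change of Il18bp was 0.55 (SE 0.10, adjusted p = 0.0181, 95% interval 0.33 to 0.78, higher in 3 of 3 libraries). Single libraries decided this call, with an adjusted p of 0.0563 without TBI replicate 1, 0.0720 without 3pRNA + TBI replicate 1 and 0.0557 without 3pRNA + TBI replicate 3, at a log2 change of 0.50 to 0.60 with any 1 of the 9 libraries left out. Without TBI replicates 1 and 3 together, whose smooth muscle sums (6071 and 5886 scaled counts) were far below those of the other 7 libraries, the log2 change was 0.66. That leaves 1 TBI library, assumed to vary like the other groups, and its adjusted p of 0.101 says nothing about stability. In blockade against 3pRNA + TBI mice the log2 change was -1.27 (SE 0.10, adjusted p = 1.02e-04, lower in 3 of 3 libraries), the 12th smallest p of 14199 genes. Il18bp was the 1 member called in this comparison, in which 1.42% of genes tested were called, 27 higher (0.19%) and 174 lower (1.23%). It kept this call in all 20 alternatives that were run, with an adjusted p of 0.00185 or less.

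In blockade against TBI mice limma called 0 of 14199 genes (0%), so no member was called either, and 1753 genes (12.3%) had an unadjusted p under 0.05. Il18bp had the third smallest p of these genes, with a log2 change of -0.72 (SE 0.10, adjusted p = 0.105, 95% interval -0.94 to -0.50). Without TBI replicate 2 limma called 355 genes in this comparison, 311 higher and 44 lower. Il18bp was among the 44 lower genes, with an adjusted p of 0.00431. Of the 9 fits with a library left out this was the 1 that called Il18bp here, and its adjusted p reached 0.486 in another. The TBI libraries kept in this fit were those with low smooth muscle sums (6071 and 5886 scaled counts, against 20001 in TBI replicate 2). Without blockade replicate 2 limma called 9 genes and no member. Exact two-sided permutation tests of Il18bp gave p = 0.10 in each of the 3 comparisons, the smallest value that 3 mice against 3 can give.

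Il18bp lies on chromosome 7, minus strand, and 80 of its 3026 exon bases (GRCm38) are shared with Numa1 on the other strand. Reads of this stretch could belong to that gene, and their number is not known here. The bases before its start are shown because Il18bp was the member that differed most between mice with a blocked and with a free interferon receptor. RefSeq (GRCm38.p6) places them at chr7:102018233-102018482, minus strand.
Il18bp: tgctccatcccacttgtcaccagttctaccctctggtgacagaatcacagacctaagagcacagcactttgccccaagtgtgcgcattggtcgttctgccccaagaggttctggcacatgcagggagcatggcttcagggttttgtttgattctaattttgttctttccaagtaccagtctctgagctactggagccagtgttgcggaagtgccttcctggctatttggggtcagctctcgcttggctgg
On neither strand does this window, or its next 50 bases, hold the core of the interferon-stimulated response element (GAAA, any 2 bases, GAAA) or the gamma-activated site that STAT dimers bind (TTC, any 3 bases, GAA). They are held by 3.44% and 8.30% of the 32851 promoter windows of this length in the table. Of the 8 members 6 have windows there (Il15 and Il7 are not among them), and none of the 6 holds either. A missing match says only that these letters are not in this window.

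For comparison, of 10 interferon-stimulated genes used as a yardstick 6 have windows and 4 of these hold the response element core on one strand. Their elements are printed with the matching bases in capitals on the strand of the gene, where a match on the other strand reads as TTTC, any 2 bases, TTTC. They lie at chr4:156200869-156200902 (Isg15, a ubiquitin-like protein), chr12:26456557-26456578 (Rsad2, an antiviral enzyme) and chr8:71537581-71537608 (Bst2, which tethers budding virus), all on the minus strand, and at chr19:34640779-34640819 on the plus strand (Ifit1, which binds viral RNA). Their first matching base is 78, 120, 130 and 104 bases before the start.
Isg15: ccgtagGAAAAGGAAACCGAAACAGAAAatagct
Rsad2: tccaacTTTCATTTTCagaaaa
Bst2: ttccagGAAAATGAAACTGAAAggctgc
Ifit1: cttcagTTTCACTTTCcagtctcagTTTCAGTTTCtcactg
Isg15 and Bst2 hold 3 and 2 overlapping matches, Ifit1 holds 2 that stand apart, and Rsad2 holds 1. No such run of letters stands in the Il18bp window above. The windows of the yardstick genes Irf7 and Ifi44 do not hold the core either. Their log2 changes were 2.01 and 4.14 in 3pRNA + TBI against TBI mice, and -2.24 and -7.20 in blockade against 3pRNA + TBI mice.

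The 10 yardstick genes changed with the same treatments. In 3pRNA + TBI against TBI mice 7 of them were called higher (median log2 change 2.02), in blockade against 3pRNA + TBI mice all 10 were called lower (median -2.61), and in blockade against TBI mice none was called (median -0.67), against changes of 0.55, -1.27 and -0.72 for Il18bp. Over the 9 libraries log2 Il18bp and the mean log2 level of the list had a Pearson r of 0.85, over libraries that share groups. Within blockade mice the order was the reverse, as the library with the highest level of the list had the lowest Il18bp. With the same list the r of the other members over the 9 libraries ran from -0.64 (Il7) to 0.78 (Il1rn), and was 0.64 for Il15ra.

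**Figure D3:**
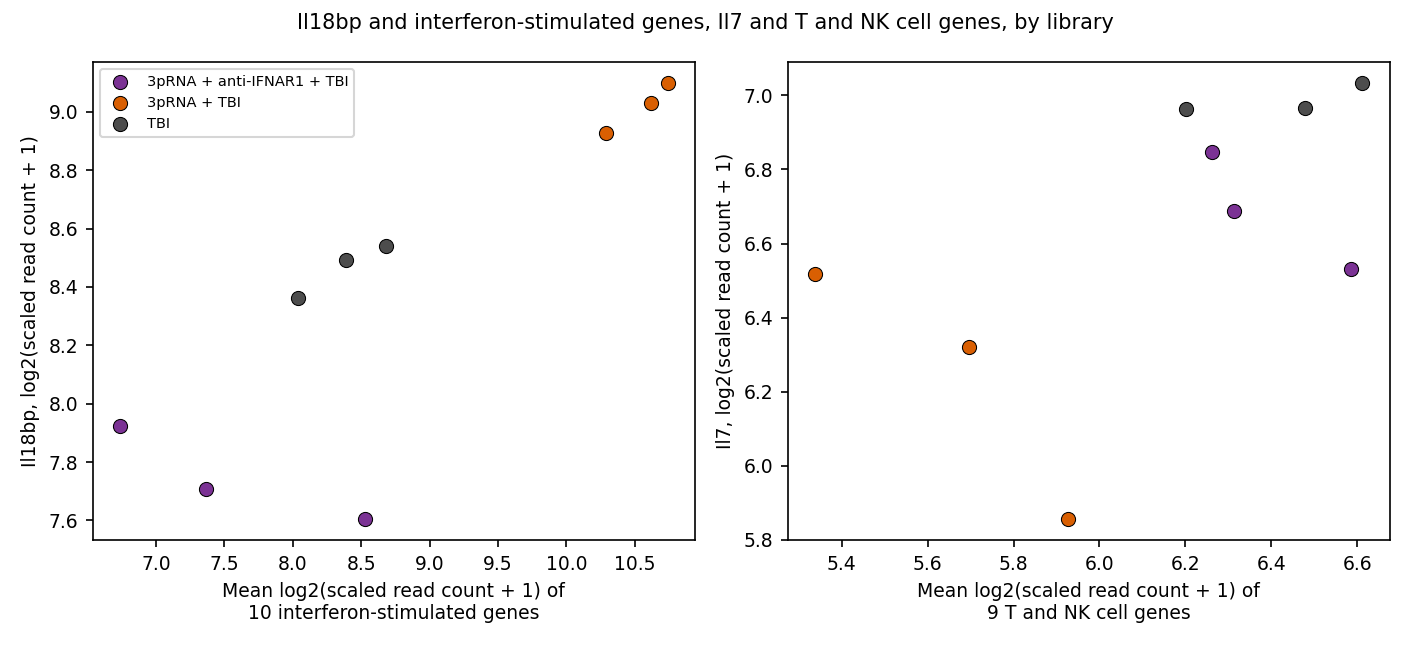
Left, Il18bp against the mean level of 10 interferon-stimulated genes, and right, Il7 against the mean level of 9 T and NK cell genes, each as log2(scaled read count + 1), 1 point per library, coloured by group. The 3 libraries of 3pRNA + TBI mice are at the upper right on the left side, where the list level is 10.3 to 10.7, and at the lower left on the right side, where it is 5.34 to 5.93.

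Il1rn, the IL-1 receptor antagonist, had 127, 145 and 124 scaled counts in blockade mice, 181, 148 and 178 in 3pRNA + TBI mice, and 164, 114 and 159 in TBI mice. Each blockade library was below each 3pRNA + TBI library, whereas the TBI libraries spanned both groups. The log2 change was -0.35 (SE 0.15, adjusted p = 0.452) in blockade against 3pRNA + TBI mice, 0.23 (adjusted p = 0.430) in 3pRNA + TBI against TBI mice and -0.12 (adjusted p = 0.783) in blockade against TBI mice, and none passed the test. Groups did not overlap for 3 members in blockade against 3pRNA + TBI mice, with Il7 higher and Il18bp and Il1rn lower, in a comparison where 15.5% of genes tested did not overlap, 8.25% higher and 7.25% lower. In blockade against TBI mice they did not overlap for 4 members, with Il15 higher and Il7, Il18 and Il18bp lower, where 19.1% of genes tested did not overlap, 7.01% higher and 12.1% lower.

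The IL-1 ligands that Il1rn opposes were low. Il1b averaged 36.1, 35.8 and 44.7 scaled counts and Il1a 9.66, 11.9 and 5.13 in blockade, 3pRNA + TBI and TBI mice, and Il1a was under the filter and not tested. The receptor chain Il1r1 averaged 86.5, 81.6 and 87.0 scaled counts, and Il1rl1, the receptor of IL-33, averaged 16.2, 16.4 and 23.8. For IL-18 the receptor chains Il18r1 and Il18rap averaged 18.6 and 13.7 scaled counts in blockade mice, 20.5 and 10.2 in 3pRNA + TBI mice, and 20.6 and 10.4 in TBI mice. None of the 10 tested genes of IL-18 processing and signalling, of the 6 of IL-1 and IL-33 signalling, or of 3 other cytokine genes was called in any comparison. Among the first, Nlrc4, which forms an inflammasome upon bacterial proteins, averaged 1646, 1588 and 1891 scaled counts and Casp4, an inflammatory caspase, 661, 869 and 759 in blockade, 3pRNA + TBI and TBI mice.

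Ratios of an inhibitor or receptor chain to its cytokine within a library depend little on its size factor, and only through the 1 added to each scaled count, which weighs most on the low Il1a and Il1b. The ratio of Il18bp to Il18, each as scaled count + 1 and not corrected for length, was 1.54, 1.41 and 1.54 in blockade mice, 2.97, 3.17 and 1.90 in 3pRNA + TBI mice, and 1.69, 1.65 and 1.67 in TBI mice. All 3pRNA + TBI libraries were above all TBI libraries, and all blockade libraries were below them, although 3pRNA + TBI replicate 3, the library highest in Il18, was close to the TBI level. The mean log2 ratio was 0.58 ± 0.07 in blockade, 1.39 ± 0.40 in 3pRNA + TBI and 0.74 ± 0.02 in TBI mice (SD, n = 3 each). The differences were 0.65 in 3pRNA + TBI against TBI mice, -0.81 in blockade against 3pRNA + TBI mice and -0.16 in blockade against TBI mice, each with an exact two-sided permutation p = 0.10, the smallest this design can give.

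The other ratios overlapped between all groups. The mean log2 ratio of Il15ra to Il15 was -0.96 ± 0.32 in blockade, -0.41 ± 0.51 in 3pRNA + TBI and -0.57 ± 0.14 in TBI mice. Exact permutation p was 0.80 in 3pRNA + TBI against TBI mice, 0.20 in blockade against 3pRNA + TBI mice and 0.30 in blockade against TBI mice, and the first difference (0.17) turned to -0.10 without 3pRNA + TBI replicate 3. The mean log2 ratio of Il1rn to the sum of Il1a and Il1b was 1.55 ± 0.58 in blockade, 1.89 ± 0.52 in 3pRNA + TBI and 1.69 ± 0.68 in TBI mice, with exact permutation p of 0.50 or more in each comparison.

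**Figure D4:**
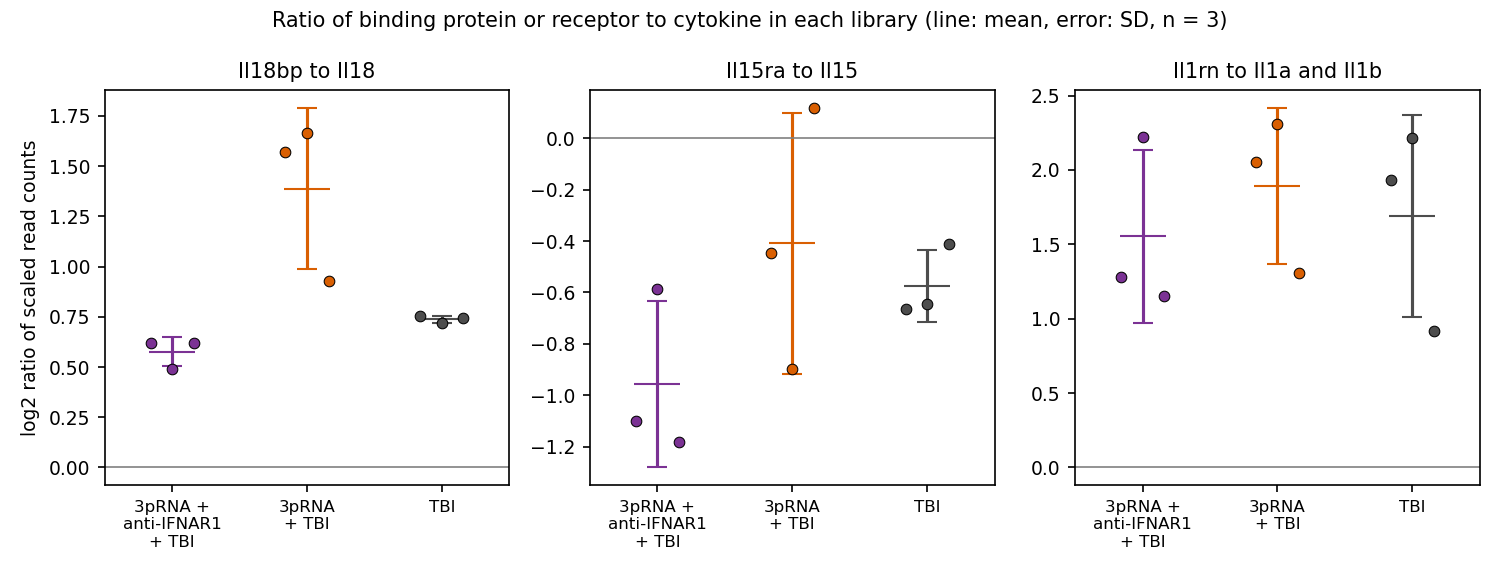
Log2 ratio of the scaled read counts of an inhibitor or receptor chain to those of its cytokine in each library, with horizontal lines for the mean and error bars for the SD (n = 3 per group). For Il18bp to Il18 the 3 groups do not overlap, with means of 0.58, 1.39 and 0.74 in 3pRNA + anti-IFNAR1 + TBI, 3pRNA + TBI and TBI mice, and for the other ratios they do.

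The genes whose pattern was most like that of each member were taken as the 3 highest Pearson r of log2(scaled count + 1) over the 9 libraries. For Il18bp these were Gm4070 (r = 0.97), Slfn8 (0.97), of the Schlafen family, and H2-Q4 (0.96), a class I histocompatibility gene. For Il7 they were Pag1, Mxd4 and Gtf2f2 (r = 0.96 each). For Il22ra1 they were Dyrk2 (0.99), Cdipt (0.97) and Hbp1 (0.97), and for Il33 Lrrk1 (0.96), Colgalt1 (0.94) and Pdpn (0.93). Il18 was closest to Msr1 (0.92), Pom121 (0.92) and Dmbt1 (0.91), Il15 to Ttc30b (0.96), Pmp22 (0.95) and Glyctk (0.95), Il15ra to Gm37206 (0.97), Arhgap39 (0.95) and Fbxl12 (0.94), and Il1rn to Pvrl4 (0.95), Gm4462 (0.93) and Amd-ps3 (0.92). Among the members themselves the most opposed were Il15 and Il18 (r = -0.92) and Il33 and Il22ra1 (r = -0.81), and Il18 and Il18bp had r = 0.66. With 14199 genes set against 9 libraries that share 3 groups, such values are a description only.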

How the data were processed

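Small intestine RNA of 9 mice was sequenced on a HiSeq2500 from TruSeq poly(A) libraries. The authors' pipeline was a 2-pass STAR alignment, HTSeq for counting and DESeq for scaling, and their processing notes name mm9 but no versions. No source used here states the strand or the gene models. What the authors deposited as a signal is a scaled count per gene plus 1, and this 1 was subtracted. The authors' 3 deposited comparison tables hold log2 ratios, p-values and group means and were not used. Groups and replicate numbers came from the sample titles. Log2(scaled count + 1) was fitted with limma 3.58.1 (R 4.3.3) with a variance trend, without covariates, over 14199 genes with a mean of at least 10. The fit was also run on simulated data with independent normal noise on the log2 scale. That simulation leaves out differences in tissue content, so it does not test their part. Ratios were compared with exact permutation tests (Python 3.11.15, NumPy 2.4.6). Alternatives were an added 5, no filter or a filter of 50, other scalings and variance models, the replicate number as a block, and libraries left out. Promoter windows were searched on both strands. The members, the 19 gene lists and the alternatives were chosen with earlier results of these data known. Partner genes and, per list, up to 4 genes with the smallest p could be named, and 3 genes most like each member. Exon lengths and overlaps came from GENCODE M21 and promoters from RefSeq, both GRCm38, not the build of the authors. Of 150 list entries 7 were not in the table.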

Additional observations from a re-analysis of the deposited data

How the results depend on the processing

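The call of Il18bp in blockade against 3pRNA + TBI mice held in 20 of 20 alternatives, that of Il18bp in 3pRNA + TBI against TBI mice in 16 and that of Il7 in 10, counting the alternative with 1 TBI library. The count of members called in 3pRNA + TBI against TBI mice was 2 and fell to 1, Il18bp, with equal totals, with an equal level of the epithelial genes, without a variance trend (Il7 adjusted p = 0.0631) and with only the 2 groups compared (Il7 adjusted p = 0.0602). Without TBI replicates 1 and 3 together it was 0, with log2 changes of 0.66 for Il18bp and -0.73 for Il7, but 1 TBI library was then left, its spread was assumed to be that of the other groups, and this lost call says nothing about stability. With each library left out it was 0 to 2, and in blockade against TBI mice 0 to 1. All genes called in 3pRNA + TBI against TBI mice were 794, and 104 to 1241 under the alternatives (209 without a trend, 454 with only the 2 groups, 1223 with the replicate block, 104 without both TBI replicates, 140 to 920 with 1 library left out). In blockade against 3pRNA + TBI mice they were 201, with 103 without a trend and 89 to 223 with 1 library left out. The cause was not tested.

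Members that were not called turned sign as follows. With equal totals and with equal epithelial level, the log2 change in 3pRNA + TBI against TBI mice was 0.0162 and 0.0663 for Il15 and 0.0175 and 0.0678 for Il18, and in blockade against TBI mice 0.00940 and 0.01995 for Il33 and 0.0394 and 0.04996 for Il22ra1. With the 1 TBI library left without TBI replicates 1 and 3 it was 0.21 for Il1rn and 0.53 for Il33 in blockade against TBI mice. With 1 library left out, the range in 3pRNA + TBI against TBI mice was -0.14 to 0.48 for Il33, -0.33 to 0.0873 for Il18, -0.21 to 0.0743 for Il15, -0.0223 to 0.20 for Il15ra, -0.10 to 0.41 for the Il15ra to Il15 ratio and -0.18 to 0.50 for the Il1rn ratio. It was -0.52 to 0.0481 for Il33 in blockade against 3pRNA + TBI mice, and in blockade against TBI mice -0.40 to 0.15 for Il33, -0.12 to 0.0241 for Il22ra1 and -0.52 to 0.13 for the Il1rn ratio.

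The correlation of deviations of same-numbered libraries was -0.19 to 0.34, and not every pair was over 0.1. The negative values, -0.06 and -0.19, were those of TBI replicate 1. For libraries of different numbers it was -0.42 to 0.23. Whether same-numbered samples belong together was not tested. With the replicate number as a block, genes called rose from 794 to 1223 in 3pRNA + TBI against TBI mice. In blockade against 3pRNA + TBI mice they rose from 201 to 281. With the replicate block the log2 changes stayed as they were, Il18bp had an adjusted p of 0.00998 and Il7 of 0.0347 in 3pRNA + TBI against TBI mice, and no call of a member changed. Count-based tests planned on recovered reads were not run. Groups of 3 are too small to single out a library by its distance from the others. Il33 and Il15ra, with as few as 32 and 38 reads in a library, are the members with the lowest depth. How far depth limits their precision was not tested.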
